A study of Mus musculus with 10 samples.

Results

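The subject is 5 genes that encode subunits of the NCoR corepressor complex, Tbl1xr1, Tbl1x, Ncor1, Hdac3 and Gps2, out of 24411 genes listed for each library. They were taken by symbol, and all 5 were found in all 10 libraries and passed the filter on low values. The set was chosen by the lower levels of its members in the comparison of the 2 groups below, so their fold changes are given as a description with no test. The study depleted Mettl3, the gene of the methyltransferase that makes N6-methyladenosine in RNA, in early mouse embryos. The depleted embryos (Mettl3-ASO, 5 libraries) received an antisense oligonucleotide against Mettl3, and the controls (ASO-Control, 5 libraries) a non-targeting one. All embryos came from superovulated oocytes fertilized in vitro, were injected at the zygote stage at 3 to 6 h after insemination, grew in KSOM medium and were collected as morulae at 72 h. Each library pools 10 embryos, so differences among single embryos are not seen. The labels name the strain ICR for replicates 1 and 2 of both groups, called untagged here, and mark replicates 3 to 5 of both as batch 2 without naming a strain.

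NCoR is a repressor complex that unliganded nuclear receptors and other DNA-bound factors bring to their target genes. The large scaffold protein, NCOR1, binds the receptor and holds HDAC3, a histone deacetylase that becomes active on the scaffold. The WD-repeat proteins TBL1X and TBLR1 (encoded by Tbl1xr1) bind histone tails and, in cultured mammalian cells, recruit the ubiquitin machinery that removes the corepressor when a receptor is activated. GPS2 joins the scaffold to these WD-repeat proteins.

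Total expected counts were 9905830 to 13530284 per untagged library and 21412857 to 32327283 per library of batch 2. Mettl3, the targeted gene, had 0, 0, 0, 0.04 and 0.03 FPKM in Mettl3-ASO libraries, against 10.64, 12.68, 6.58, 7.77 and 6.62 FPKM in ASO-Control libraries. On the axis of largest variance, which separated the groups, Mettl3-ASO replicate 1 scored 34.0, the other 4 Mettl3-ASO libraries 56.7 to 73.8 and the ASO-Control libraries −70.5 to −51.8. Defining genes of pluripotent embryo cells summed to 6025 to 7219 CPM in Mettl3-ASO libraries and 6728 to 7311 CPM in ASO-Control libraries. The sum is a poor guide to single genes, since Dppa5a averaged 13932 FPKM in Mettl3-ASO and 15117 FPKM in ASO-Control. No other gene of the list averaged above 214 FPKM in a group. Of the 9 tested 4 rose (Nanog, Sall4, Klf4 and Esrrb) and 2 fell (Pou5f1 and Utf1). Among all tested genes 25.4% were called higher and 24.0% lower. The marker genes named here were chosen after their values were seen. Of 12 cumulus cell genes, 5 had no counts in any Mettl3-ASO library. The list summed to at most 14.1 CPM, against 8.93 CPM in ASO-Control. Its only tested gene, Amhr2, rose, with means of 4.68 FPKM in Mettl3-ASO and 2.58 FPKM in ASO-Control (edgeR adjusted p = 0.0374). The 8 sperm genes summed to 23.1 to 36.0 CPM in Mettl3-ASO and 27.4 to 53.5 CPM in ASO-Control. Of these, Odf2 averaged 8.99 FPKM in Mettl3-ASO and 11.67 FPKM in ASO-Control. No other sperm gene averaged above 1.16 FPKM in a group, and Akap4 and Smcp had no counts in any library. Markers of other stages and lineages also differed between the groups. The 12 two-cell genes summed to 1986 to 5344 CPM in Mettl3-ASO and 546 to 660 CPM in ASO-Control. Of the 12, 11 rose and 0 fell. Zscan4c, Zscan4d, Zscan4f, Zfp352, Tdpoz4, Usp17lb and Gm8300 averaged 0.148 to 0.842 FPKM in ASO-Control. They passed the filter on low values only through Mettl3-ASO, so nothing is read from their rise. Eif1a, chosen after its values were seen, did not pass and averaged 209 FPKM in Mettl3-ASO and 222 FPKM in ASO-Control. The other two-cell genes averaged at most 3.47 FPKM in ASO-Control. The 8 trophectoderm genes summed to 135 to 584 CPM in Mettl3-ASO and 329 to 1266 CPM in ASO-Control, and of the 7 tested 0 rose and 4 fell. Their part in the results below was not tested.

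Tbl1xr1 was nearly absent from Mettl3-ASO morulae. The gene lies on the plus strand of chromosome 3 at 22076652 to 22216594 (GRCm38), and no exon of another annotated gene overlaps its exons. Its expected counts were 12, 1, 0, 7 and 3 in Mettl3-ASO replicates 1 to 5, against 961, 1010, 1055, 1273 and 1290 in ASO-Control replicates 1 to 5. In FPKM, which scales counts by transcript length and library size, these were 0.11, 0.01, 0, 0.03 and 0.02 in Mettl3-ASO, against 9.53, 10.80, 4.68, 5.02 and 5.05 in ASO-Control. Every Mettl3-ASO library lay far below every ASO-Control library, and the untagged controls lay above those of batch 2. The count of 0 in replicate 3 allows up to 0.108 CPM at 3 counts of that library's total. Summed over libraries and divided by depth, 23 counts in Mettl3-ASO against 5589 in ASO-Control gave a 204-fold lower level (95% exact interval 136 to 323, counting error only). The ratio was 294-fold in batch 2 (10 against 3618 counts) and 145-fold in the untagged libraries (13 against 1971 counts). The fitted log2 fold change was −7.76 ± 0.43 (SE). Without Mettl3-ASO replicate 1, which held 12 of the 23 counts, it was −8.38. Of 9522 tested genes, 1 had a lower fitted value, and that gene was Mettl3. The oligonucleotide sequences were not analysed here, so whether the one against Mettl3 also pairs with Tbl1xr1 RNA was not tested.

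The sequence at the start of Tbl1xr1 is shown because its base composition differs from that of the windows of Tbl1x, Ncor1 and Gps2; a window for Hdac3 was not used here. RefSeq (GRCm38.p6) places the promoter window, 250 bases before to 50 after the start, at chr3:22076402-22076701 on the plus strand. Capitals mark CCCTCC, a word chosen after the sequence was seen and searched on both strands, with overlaps counted.
Tbl1xr1 promoter: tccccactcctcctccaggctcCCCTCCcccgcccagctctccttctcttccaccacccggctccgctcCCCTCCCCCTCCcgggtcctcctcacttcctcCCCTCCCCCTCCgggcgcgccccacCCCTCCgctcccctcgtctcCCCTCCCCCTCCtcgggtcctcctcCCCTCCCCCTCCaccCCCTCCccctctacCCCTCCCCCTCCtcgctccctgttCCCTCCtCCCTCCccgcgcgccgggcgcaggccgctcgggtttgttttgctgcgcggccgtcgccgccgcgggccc
The window holds 15 copies of CCCTCC, against 1 in that of Tbl1x, 3 in the Ncor1 window printed with that gene and 0 in that of Gps2. Of 32851 promoter windows of this length, 39.2% hold at least 1 copy. The share holding as many as Tbl1xr1, 0.00304%, is its own window, from which the word was chosen. C or T makes up 80.7% of the strand, and 0.0213% of windows reach that share. AGGTCA, a word that many nuclear receptors bind, is in none of the windows of Tbl1xr1, Tbl1x, Ncor1 and Gps2 and in 16.3% of all windows. A match or its absence describes these letters only.

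Tbl1x, the X-linked relative of Tbl1xr1 with a similar role, was lower in most Mettl3-ASO libraries but remained measurable. It lies on chromosome X at 77511013 to 77662983 (GRCm38). It had 6.84, 3.51, 1.01, 3.26 and 1.28 FPKM in Mettl3-ASO, against 10.36, 6.49, 4.55, 3.42 and 5.87 FPKM in ASO-Control. The groups overlapped, since Mettl3-ASO replicates 1 and 2 lay inside the control range, while in batch 2 the 3 Mettl3-ASO libraries lay below the 3 controls. The mean was 3.18 ± 2.34 FPKM in Mettl3-ASO and 6.14 ± 2.64 FPKM in ASO-Control (SD, n = 5). The fitted log2 fold change was −1.13 ± 0.33 (SE), with −1.36 ± 0.44 within batch 2 and −0.77 ± 0.42 within the untagged libraries. It was −1.44 without Mettl3-ASO replicate 4 and −0.94 without replicate 3.

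**Figure D1:**
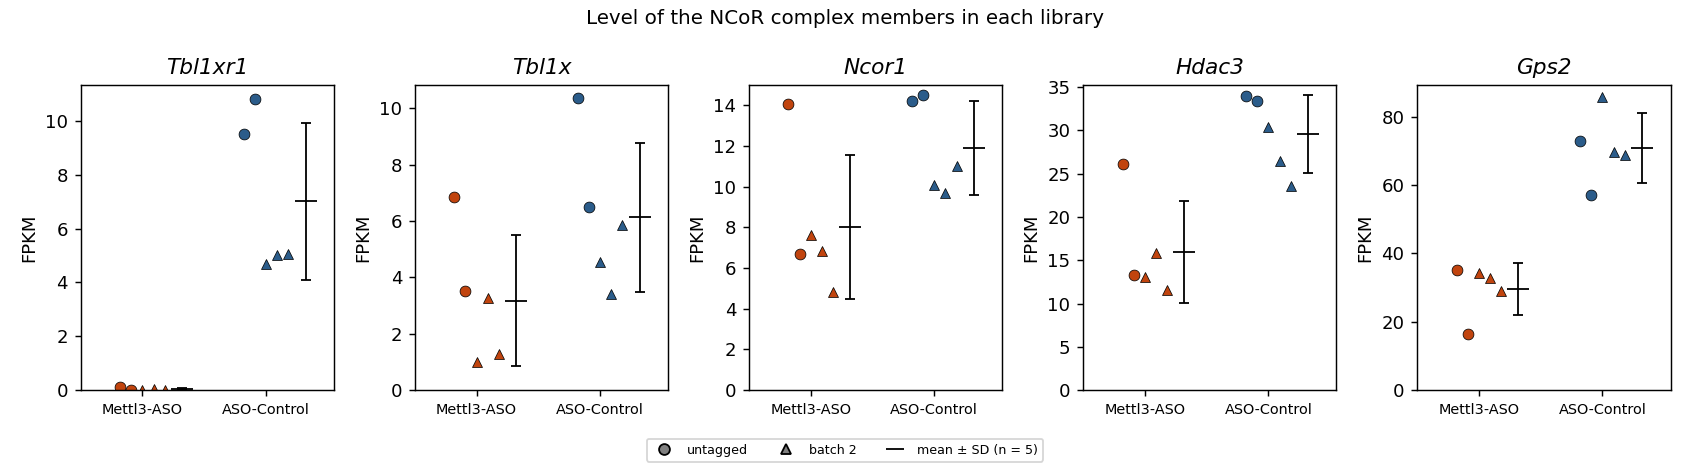
FPKM of Tbl1xr1, Tbl1x, Ncor1, Hdac3 and Gps2 in each library, with Mettl3-ASO left of ASO-Control; circles are untagged libraries, triangles batch 2, and the bar gives the mean ± SD (n = 5). Tbl1xr1 lies between 0 and 0.11 in Mettl3-ASO and between 4.68 and 10.80 in ASO-Control, and Mettl3-ASO replicate 1 is the highest library of its group for all 5 genes.

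The TBL1-type transcripts were both scarcer in Mettl3-ASO and made up almost wholly of Tbl1x. In TPM, which is scaled per length and to a common library sum, Tbl1xr1 made up 1.6%, 0.254%, 0%, 0.893% and 1.54% of the pair in Mettl3-ASO replicates 1 to 5, against 47.9%, 62.4%, 50.7%, 59.5% and 46.3% in ASO-Control replicates 1 to 5. In TPM the share was thus near even in controls, where Tbl1x was the higher of the pair in 2 of 5 libraries. Tbl1x was the higher in 5 of 5 Mettl3-ASO libraries. The even share rests on the deposited lengths, 8127 bases for Tbl1xr1 and 2302 for Tbl1x. Expected counts in ASO-Control summed to 5589 for Tbl1xr1 and 1325 for Tbl1x. The matched GENCODE transcripts have 4209 and 5234 bases, so the share, the sum and the ratio to Ncor1 would differ with them. The summed level of the pair was 7.5, 3.94, 0.99, 3.36 and 1.3 TPM in Mettl3-ASO, against 20.75, 19.04, 8.90, 8.60 and 10.87 TPM in ASO-Control. The groups did not overlap, and Tbl1x was not higher in Mettl3-ASO in either batch. Relative to Ncor1, the pair had 0.132 to 0.526 times its TPM in Mettl3-ASO and 0.873 to 1.40 times in ASO-Control.

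**Figure D2:**
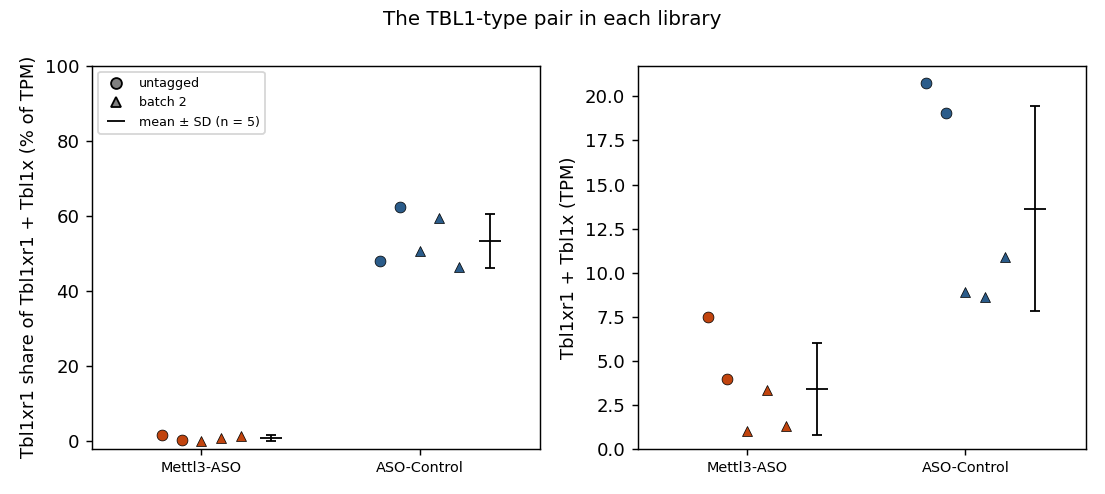
Share of Tbl1xr1 in the summed TPM of Tbl1xr1 and Tbl1x (left, percent) and the sum itself (right, TPM) in each library, with the mean ± SD (n = 5). At the deposited transcript lengths, the share is at most 1.6% in Mettl3-ASO and at least 46.3% in ASO-Control.

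The relatives differ enough in sequence for reads to be told apart. Their coding sequences, 1542 bases for Tbl1xr1 and 1581 for Tbl1x in the GENCODE M21 transcripts, are 77.5% identical over 1539 aligned bases, and the longest identical run is 20 bases. The most alike 60-base stretch, at bases 1090 to 1149 of the Tbl1xr1 and 1129 to 1188 of the Tbl1x coding sequence, is shown with the 7 differing bases in capitals.
Tbl1xr1 coding stretch: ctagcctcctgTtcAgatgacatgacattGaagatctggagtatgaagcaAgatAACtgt
Tbl1x coding stretch: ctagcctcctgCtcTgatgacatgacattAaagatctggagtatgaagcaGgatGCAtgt
Of 50-base words along the transcript, 0% of those of Tbl1x and Hdac3, 0.433% of those of Tbl1xr1, 1.05% of those of Ncor1 and 3.84% of those of Gps2 occur in a transcript of another gene. The authors' tables list 8127 bases for Tbl1xr1 and 2302 for Tbl1x, other lengths than the GENCODE transcripts matched to the same accessions (4209 and 5234 bases), so the compared stretches are not exactly those counted.

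Ncor1, the scaffold, differed less than the other members, and its estimated transcript mixture also differed. The gene lies on the minus strand of chromosome 11 at 62316426 to 62458541 (GRCm38), and exons of Pigl and Ttc19 on the opposite strand overlap 0.648% of its exon bases. It had 14.07, 6.69, 7.62, 6.81 and 4.82 FPKM in Mettl3-ASO, against 14.22, 14.49, 10.08, 9.66 and 11.02 FPKM in ASO-Control. Replicate 1 of Mettl3-ASO lay inside the control range, and the other 4 libraries of its group lay below it. The fitted log2 fold change in counts was −0.45 ± 0.15 (SE), −0.58 without Mettl3-ASO replicate 1 and −0.37 without replicate 2. In mean FPKM, Mettl3-ASO stood at 67.3% of ASO-Control.

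The tables give Ncor1 3 RefSeq transcripts and an abundance-weighted mean length per library. That length was 6352, 6845, 5879, 6237 and 7789 bases in Mettl3-ASO, against 5920, 5732, 5519, 5654 and 5616 bases in ASO-Control. The estimate was longer in every Mettl3-ASO library than in every control of the same batch, and over all libraries only Mettl3-ASO replicate 3 overlapped the controls. The GENCODE transcripts matched to the same accessions have 8852, 7243 and 3171 bases. FPKM divides by this length, while the fitted fold change uses counts. The other 4 members have a single listed transcript and a fixed length.

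**Figure D3:**
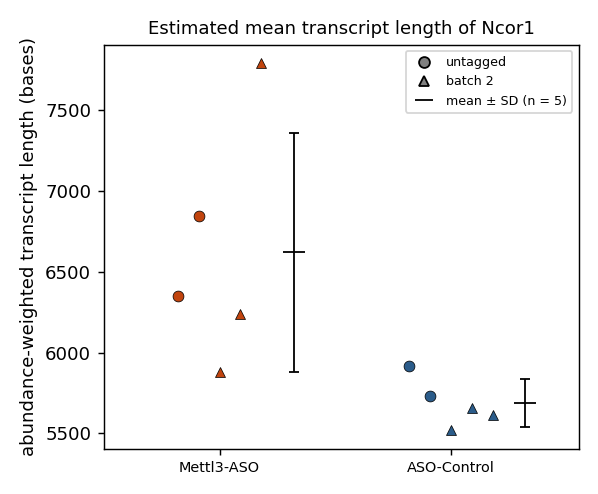
Abundance-weighted mean transcript length of Ncor1 in bases, as deposited, in each library; circles are untagged, triangles batch 2, and the bar gives the mean ± SD (n = 5). Mettl3-ASO libraries lie between 5879 and 7789 bases and ASO-Control libraries between 5519 and 5920 bases; the axis does not start at 0.

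A promoter window of Ncor1 at chr11:62457283-62457582 on the minus strand (RefSeq, GRCm38.p6) is shown as a contrast to that of Tbl1xr1, with AAGATGG, a word within the site that the factor YY1 binds, in capitals.
Ncor1 promoter: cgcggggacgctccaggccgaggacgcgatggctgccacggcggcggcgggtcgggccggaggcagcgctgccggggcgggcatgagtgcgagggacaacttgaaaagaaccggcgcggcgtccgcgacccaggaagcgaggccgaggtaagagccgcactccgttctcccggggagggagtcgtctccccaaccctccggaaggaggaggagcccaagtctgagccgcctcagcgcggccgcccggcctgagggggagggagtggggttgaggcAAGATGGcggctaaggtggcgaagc
The word was searched on both strands and is in 6.34% of all windows and in none of Tbl1xr1, Tbl1x and Gps2. C or T makes up 39.0% of this strand, against 80.7% in Tbl1xr1. RefSeq gives Ncor1 another window, at chr11:62438466-62438765 on the minus strand, which is not printed. It has 55.3% C or T, 0 copies of CCCTCC and 1 of AAGATGG.

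Hdac3, the deacetylase, was lower in 4 of 5 Mettl3-ASO libraries than in any control. It had 26.14, 13.27, 13.10, 15.88 and 11.55 FPKM in Mettl3-ASO, against 34.00, 33.39, 30.35, 26.50 and 23.56 FPKM in ASO-Control. Mettl3-ASO replicate 1 lay inside the control range but below both untagged controls. In mean FPKM, Mettl3-ASO stood at 54.1% of ASO-Control. The fitted log2 fold change was −0.96 ± 0.16 (SE), with −1.02 within batch 2 and −0.85 within the untagged ones.

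Gps2, which links the scaffold to the TBL1-type proteins, was lower in every Mettl3-ASO library than in every control. The gene lies on the plus strand of chromosome 11 at 69913888 to 69916591 (GRCm38). It had 35.03, 16.47, 34.34, 32.88 and 28.99 FPKM in Mettl3-ASO, against 72.89, 57.11, 85.85, 69.77 and 68.71 FPKM in ASO-Control. Replicate 2 was the lowest library in each group, and the groups stood apart. The fitted log2 fold change was −1.32 ± 0.17 (SE), with −1.25 within batch 2 and −1.41 within the untagged ones. The promoter window at chr11:69913770-69914069 on the plus strand (RefSeq, GRCm38.p6) is shown because its words differ from those of Tbl1xr1, with matches on either strand in capitals. It holds CCAAT, found in 37.4% of all windows. It also holds CCGGAAG, found in 8.86% of windows, and TGACG, found in 20.8%.
Gps2 promoter: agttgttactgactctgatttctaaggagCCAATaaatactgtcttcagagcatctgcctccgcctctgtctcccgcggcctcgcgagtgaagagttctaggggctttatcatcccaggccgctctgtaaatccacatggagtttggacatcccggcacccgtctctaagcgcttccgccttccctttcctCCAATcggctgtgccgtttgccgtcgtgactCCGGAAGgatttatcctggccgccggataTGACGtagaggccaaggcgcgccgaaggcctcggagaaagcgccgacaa

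Fitted values lay below 0 for 5 of 5 members with all libraries, with batch 2 alone and with the untagged ones alone. Among all 9522 tested genes, 24.0% were called lower in Mettl3-ASO and 25.4% higher, by edgeR's quasi-likelihood test at an adjusted p under 0.05, and the median log2 fold change was 0.01. The FPKM of the groups did not overlap, with Mettl3-ASO lower, for 2 of 5 members, Tbl1xr1 and Gps2, and for 10.6% of all tested genes. Within batch 2 this held for 5 of 5 members and 24.1% of genes, and within the untagged libraries for 4 of 5 members and 26.1% of genes. As the members were chosen on this contrast, nothing is read from these counts. A larger fitted fall than that of Gps2, Tbl1x, Hdac3 and Ncor1 was seen in 5.10%, 7.06%, 9.92% and 25.6% of tested genes. Tbl1xr1 passed the filter on low values only through its control libraries, so at its Mettl3-ASO level it had to differ in order to be tested. Levels are relative to each library's total, and fewer cells of a type and less RNA per cell cannot be told apart in pooled embryos.

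**Figure D4:**
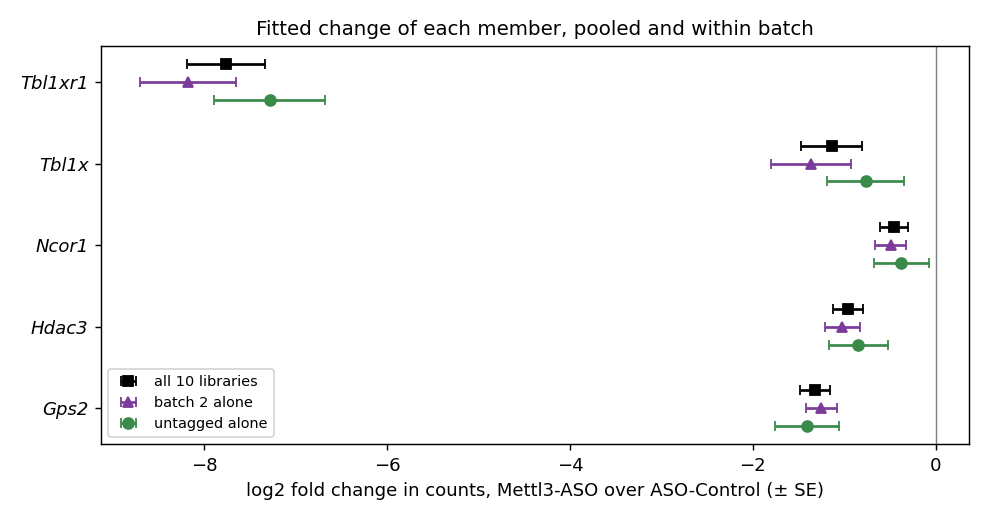
Fitted log2 fold change of each member in counts, Mettl3-ASO over ASO-Control, with its SE, for all 10 libraries, for batch 2 and for the untagged libraries. All points lie below 0; Tbl1xr1 lies at −7.76 and the other 4 between −1.32 and −0.45 over all libraries.

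Whether the effect of the oligonucleotide differed between batch 2 and the untagged libraries was tested by an interaction term, which the choice of members did not use. The difference of the log2 fold changes was −0.89 ± 0.90 for Tbl1xr1, −0.62 ± 0.68 for Tbl1x, −0.14 ± 0.32 for Ncor1, −0.19 ± 0.35 for Hdac3 and 0.14 ± 0.35 for Gps2 (± SE). None passed (edgeR adjusted p = 0.9999 for each). Over all genes 0.0% were called by edgeR (0 of 9522), 159 had an unadjusted p under 0.05, and DESeq2 called 1. On simulated data, with 100 genes changed at each size among 9522, this interaction test recovered 4% of 2-fold and 36% of 4-fold differences. Most differences between batches of either size would thus have been missed in that setting.

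The order of the members by TPM, each ranked singly, began with Gps2, Hdac3 and Ncor1 in 5 of 5 Mettl3-ASO and 5 of 5 ASO-Control libraries. Tbl1xr1 and Tbl1x came below these, and their places rest on the deposited lengths. Their sum was above Ncor1 in ASO-Control replicates 1 and 2 (1.40 and 1.19 times) and below it in every other library. In ASO-Control, Gps2 at 57.11 to 85.85 FPKM and Hdac3 at 23.56 to 34.00 FPKM stood apart from each other and from the rest. The next neighbours did not separate, since Ncor1 (9.66 to 14.49 FPKM) overlapped Tbl1xr1 (4.68 to 10.80 FPKM), and Tbl1xr1 overlapped Tbl1x (3.42 to 10.36 FPKM). In Mettl3-ASO, Gps2 (16.47 to 35.03 FPKM) overlapped Hdac3 (11.55 to 26.14 FPKM), Hdac3 overlapped Ncor1, and Ncor1 overlapped Tbl1x, while Tbl1xr1 stood below them all. Summed over the 5 members, the level was 44.7 to 88.7 TPM in Mettl3-ASO and 114 to 147 TPM in ASO-Control.

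Mettl3 and its partners place the N6-methyl group at short RNA words such as GGACU. The GENCODE transcript of Tbl1xr1 holds 2 copies of GGACT, the same word in DNA letters, or 0.475 per kb. Tbl1x holds 7 copies (1.34 per kb), Ncor1 8 (0.904 per kb), Hdac3 4 (1.97 per kb) and Gps2 3 (2.46 per kb). The median over 8831 tested genes was 1.02 per kb; 81.5% of them reach the density of Tbl1xr1 and 6.08% that of Gps2. Only these GENCODE transcripts were searched, 4209 bases for Tbl1xr1 against 8127 bases in the authors' tables, and methylation itself was not measured.

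The 5 genes with the pattern most like Tbl1xr1, by the Pearson correlation of log2(FPKM + 1) over the 10 libraries, were Mettl3 (r = 0.996), Hs2st1 (r = 0.993), Hormad2 (r = 0.989), Nr6a1 (r = 0.988) and Eefsec (r = 0.987). These points fall into 2 groups of libraries and share depth and batch, so r is a description of that split. Hs2st1, a heparan sulfate sulfotransferase gene, had 0.10 to 0.42 FPKM in Mettl3-ASO and 3.12 to 6.16 FPKM in ASO-Control. Hormad2, which encodes a protein of meiotic chromosomes, had 0.09 to 0.59 FPKM in Mettl3-ASO and 3.20 to 5.87 FPKM in ASO-Control. Nr6a1, which encodes an orphan nuclear receptor, had 0.01 to 0.34 FPKM in Mettl3-ASO and 4.41 to 7.90 FPKM in ASO-Control. Eefsec, the elongation factor gene for selenocysteine, had 0.19 to 0.45 FPKM in Mettl3-ASO and 1.87 to 3.45 FPKM in ASO-Control. For all 5, as for Tbl1xr1, both untagged controls lay above the 3 controls of batch 2. They were chosen by this correlation, so a shared order of the controls is no further result. None exceeded 0.59 FPKM in a Mettl3-ASO library, so all 5 passed the filter on low values only through ASO-Control.

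Genes that act around the complex were described in 13 lists of 147 genes, of which 88 were tested. Of these, 16 rose and 20 fell (40.9% called, against 49.4% of all tested genes), with a median log2 fold change of −0.01. Of the 36 called genes, 4 (Nr1d2, Etv6, Phf21a and, named after its values were seen, Nr2c1) averaged under 1 FPKM in a group and passed the filter on low values only through the group where they were high. Adjusted p-values here are edgeR quasi-likelihood values with Benjamini-Hochberg adjustment over all tested genes, and changes are on the log2 scale with the SE.

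The TRiC chaperonin, which folds HDAC3 before it joins the scaffold, had the largest share of called genes among the lists of at least 5 tested genes, with 6 of 8 lower and none higher (median −0.46). Cct4 fell to 273 ± 30.0 FPKM in Mettl3-ASO, against 464 ± 46.4 FPKM in ASO-Control (SD, n = 5; −0.81 ± 0.10, adjusted p = 3.1e-05). Cct6a fell by 0.82 ± 0.11 (adjusted p = 8.4e-05). Cct7 and Cct8, named after their values were seen, had −0.02 and −0.27 and did not pass. Of the direct partners of HDAC3 and its scaffold, 6 of 7 were under 1 FPKM, and the only one tested, the demethylase gene Kdm4a, chosen after its values were seen, had −0.52 (adjusted p = 0.183).

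Among kinases and a phosphatase of inositol phosphates, the small molecules that sit between HDAC3 and its scaffold, 2 of 7 rose and 1 fell (median 0.53). Itpkc had 4.85, 4.39, 6.04, 4.48 and 4.83 FPKM in Mettl3-ASO, against 1.73, 1.46, 1.07, 1.27 and 0.91 FPKM in ASO-Control, and rose by 1.92 ± 0.21 (adjusted p = 1.9e-05). Ipmk, an inositol polyphosphate multikinase gene, rose by 0.95 ± 0.15 (adjusted p = 2.2e-04). The groups did not overlap for either gene, and 15.0% of all tested genes also had every Mettl3-ASO library above every control. These 2 genes were named for their small p, so nothing is read from this.

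Nuclear receptors that recruit NCoR were split, with 2 of 8 tested rising and 2 falling, and 15 of 23 listed receptors were under 1 FPKM. Nr1d2, which encodes the heme-binding repressor REV-ERB beta, had 0.07, 0.34, 0.37, 0.34 and 0.32 FPKM in Mettl3-ASO, against 1.70, 2.18, 3.27, 1.87 and 3.00 FPKM in ASO-Control, and fell by 3.13 ± 0.36 (adjusted p = 2.5e-05). Its paralog Nr1d1 rose by 0.90 (adjusted p = 0.0114), and was chosen after its values were seen. Rarg, a retinoic acid receptor gene, rose by 0.99 ± 0.20 (adjusted p = 0.0015). Of 7 tested genes that such receptors are known to regulate in other tissues, 1 rose and 2 fell; 2 rose without ASO-Control replicate 3 or 5, and 1 fell when ASO-Control replicate 1, ASO-Control replicate 3 or Mettl3-ASO replicate 5 was left out. Angptl4, a target of PPAR receptors, rose by 1.11 ± 0.26 (adjusted p = 0.00348) and Plin2, which coats lipid droplets, fell by 0.75 ± 0.19 (adjusted p = 0.00493).

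Among other DNA-bound or adaptor proteins that recruit NCoR, 2 of 5 rose. Etv6 rose to 1.62 ± 0.716 FPKM in Mettl3-ASO, against 0.798 ± 0.245 FPKM in ASO-Control (SD, n = 5; adjusted p = 0.0209), and Ski rose by 0.42 ± 0.14 (adjusted p = 0.0276). Both calls depended on single libraries: Etv6 had an adjusted p of 0.0535 without ASO-Control replicate 3, 0.0634 without Mettl3-ASO replicate 2 and 0.0768 without Mettl3-ASO replicate 5. Ski had 0.0569, 0.0761 and 0.0516 without ASO-Control replicate 2, 3 or 5, and 0.0546 and 0.0561 without Mettl3-ASO replicate 4 or 5. Of the ubiquitin enzymes and other factors of corepressor exchange and turnover, 3 of 8 rose and 2 fell. Ctbp2, a corepressor gene, fell by 1.27 ± 0.23 (adjusted p = 6.5e-04), with Mettl3-ASO replicate 1 at 14.88 FPKM and replicates 2 to 5 at 4.58 to 6.39 FPKM. Ube2d3, an E2 ubiquitin enzyme gene, fell by 0.45 ± 0.10 (adjusted p = 0.00191).

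Coactivators, which take the place of NCoR on an activated receptor, had 2 of 9 genes higher and none lower. The acetyltransferase gene Ep300 rose by 0.94 ± 0.21 (adjusted p = 0.00241) and Ncoa3 by 0.60 ± 0.19 (adjusted p = 0.0161). Among 3 tested genes linked to beta-catenin, which binds the TBL1-type proteins, 2 rose. These were Myc by 1.72 (adjusted p = 4.3e-05) and Tcf7l2 by 0.73 (adjusted p = 0.0217), both chosen after their values were seen. The count of 2 was 1 without ASO-Control replicate 1 or 4, or without Mettl3-ASO replicate 2, 4 or 5.

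Other deacetylase complexes were described by their subunits. Each gene was counted in 1 list only, so subunits that several of these complexes share, Hdac2 among them, were counted under NuRD. The counts for Sin3, CoREST and MiDAC leave them out. In the Sin3 complex 2 of 13 fell and none rose (4 fell with DESeq2, and 1 rose without Mettl3-ASO replicate 1 or 2), with Sap30 falling to 19.5 ± 3.97 FPKM in Mettl3-ASO, against 49.1 ± 7.30 FPKM in ASO-Control (SD, n = 5; −1.38 ± 0.14, adjusted p = 1.2e-05), and Brms1l by 0.53 ± 0.17 (adjusted p = 0.0182; 0.0543 without ASO-Control replicate 5). In NuRD 3 of 11 fell and 1 rose (2 without ASO-Control replicate 2 or Mettl3-ASO replicate 1), with Mbd3 falling by 0.96 ± 0.20 (adjusted p = 0.00152) and Hdac2 by 0.53 ± 0.10 (adjusted p = 0.00107). In CoREST 2 of 7 fell and 1 rose, with the demethylase gene Kdm1a falling by 1.03 ± 0.17 (adjusted p = 3.3e-04) and Phf21a rising by 1.59 ± 0.27 (adjusted p = 4.8e-04). The single tested gene of the MiDAC list, Dnttip1, chosen after its values were seen, had 0.05 (adjusted p = 0.824). Whether any of these lists differs from the rest of the genes was not tested.

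**Figure D5:**
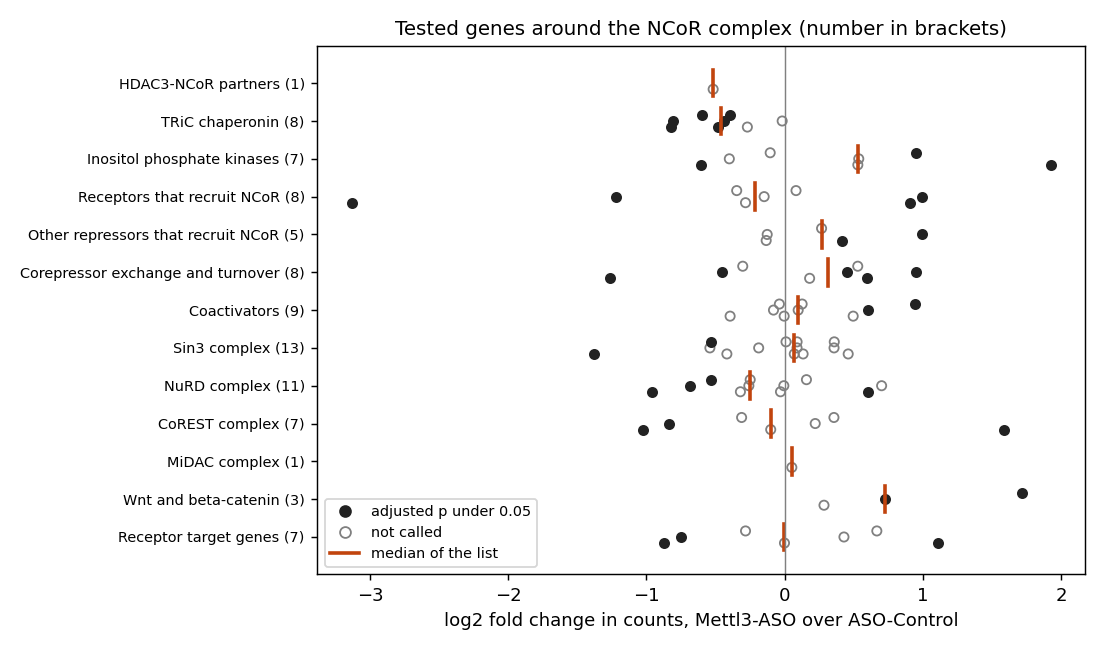
Log2 fold change in counts, Mettl3-ASO over ASO-Control, of each tested gene in the 13 lists around the NCoR complex; filled points have an edgeR adjusted p under 0.05, open points do not, and the bar is the list's median. The TRiC chaperonin genes lie below 0, while most other lists hold genes on both sides; the lowest point is Nr1d2 at −3.13.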

How the data were processed

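Pools of 10 mouse morulae gave 10 libraries of polyadenylated RNA, built with the SMART-Seq v4 PLUS kit per the labels' protocols. Groups and replicate numbers come from the sample titles and batch from the labels. STAR 2.7.10, RSEM 1.3.3 and the build mm10 are named in the submitters' processing notes; their options, the strand setting and the annotation release were not given in the sources used here. For each gene the authors deposited an expected count per gene, an estimate that shares out ambiguous reads and need not be whole. The deposited FPKM and TPM values were scaled by the authors per length and library, and the deposited lengths are means over transcripts weighted by abundance.

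Expected counts were rounded and tested with edgeR 4.0.16 in R 4.3.3 (quasi-likelihood test, TMM scaling, terms for batch and group) over the 9522 genes whose mean FPKM reached 1. Genes are called at an adjusted p under 0.05 (Benjamini-Hochberg). On simulated data, with 100 genes changed at each size among 9522, this test recovered 66% of 2-fold and 91% of 4-fold changes. In the data 49.4% of genes were called, so these shares need not hold there. The SE is the absolute log2 fold change over the square root of F. Alternatives used DESeq2 1.42.0, limma 3.58.1 and other filters, scalings, models and libraries. Genes named are the members, the 2 called genes of smallest p in each list of at least 5 tested genes and the 5 most like Tbl1xr1; others are said to be chosen after their values were seen. A further gene that the rule names is not reported here. Members and lists were chosen with earlier results of these data known. Promoters are from RefSeq (GRCm38.p6; windows for 4 of 5 members) and positions and transcripts from GENCODE M21, on the build named in the notes. Separate cultures or matings are not stated in the labels; the p-values therefore reflect spread among these libraries, part of which may be technical. Counting intervals cover counting error only.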

Additional observations from a re-analysis of the deposited data

Results flagged for a closer look

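A library stood apart from the other 4 of its group, by the gap to its nearest neighbour relative to the group's range, in 9 of 62 groups examined, where chance gives about 1 in 20. Tbl1xr1 had 0.11 FPKM in Mettl3-ASO replicate 1, against 0 to 0.03 in the other libraries of that group. In the same library Ctbp2 had 14.88 FPKM (others 4.58 to 6.39), Mbd3 had 27.12 FPKM (others 7.71 to 11.88) and Nr1d2 had 0.07 FPKM (others 0.32 to 0.37). Itpkc had 6.04 FPKM in Mettl3-ASO replicate 3 (others 4.39 to 4.85), and Eefsec had 0.19 FPKM there (others 0.39 to 0.45). Ep300 had 8.60 FPKM in Mettl3-ASO replicate 5 (others 4.89 to 5.57). Phf21a had 2.44 FPKM in Mettl3-ASO replicate 2 (others 1.28 to 1.42). Brms1l had 15.37 FPKM in ASO-Control replicate 3 (others 20.21 to 21.75).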

How the results depend on the processing

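The 5 members kept their sign under every alternative run. The fitted log2 fold change of Tbl1xr1 was −2.88 and −1.22 with limma on log2(FPKM + 1) and log2(FPKM + 5), and that of Tbl1x −0.46 with log2(FPKM + 5), scales that understate changes of low genes. Without single libraries the values ranged from −8.38 to −7.42 for Tbl1xr1, −1.44 to −0.94 for Tbl1x, −0.58 to −0.37 for Ncor1, −1.10 to −0.88 for Hdac3 and −1.44 to −1.20 for Gps2. In the untagged libraries alone 596 genes were called (361 rose, 235 fell), and of the linked lists 1 gene, which fell, and 0 that rose. With a mean FPKM of at least 5, 8 linked genes rose among fewer genes tested (53). Without single libraries 4194 to 4800 genes were called (2162 to 2461 rose, 2022 to 2339 fell), and 32 to 38 linked genes (12 to 19 rose, 18 to 21 fell). The interaction of group and batch gave 1 gene with DESeq2, 48 with no filter on FPKM and 0 to 2 without single libraries; the cause was not tested. A replicate block fitted instead of batch called 5246 genes, 2630 higher and 2616 lower, and 43 linked genes. The labels state no pairs. Deviations of same-numbered libraries correlated at 0.063 to 0.164 in batch 2, above those of different-numbered libraries there (−0.180 to 0.061). The untagged libraries give only 1 distinct value, 0.231. Whether libraries of the same number are paired was not tested. Among the lists, 4 Sin3 genes fell with DESeq2 and with the replicate block. With no FPKM filter 4 beta-catenin genes rose, among 13 tested instead of 3. With a mean FPKM of at least 5, 0 receptors rose, 0 fell and 0 other repressors rose, but only 1 gene of each of these 2 lists was tested. In batch 2 alone 0 of 5 other repressors rose. Of 488 values of 25 named genes under the alternatives, 453 kept their direction and call and 35 kept their direction only, most of them in the untagged libraries alone. Depth limits Tbl1xr1, with at most 12 counts in a Mettl3-ASO library.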
